A study of Oryza sativa with 6 samples.

Results

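The circadian clock genes of rice were examined in roots of 2 genotypes, the transgenic line Huahui 1 (HH1) and the parent it was made from, the indica restorer Minghui 63 (MH63), which is not transgenic. The set was fixed by 8 names, PRR1, PRR37, PRR59, PRR73, PRR95, LHY, CCA1 and GI, looked up as symbols or synonyms in the platform's gene annotation and the RefSeq gene table. Of these names 7 were found, and they stand for 6 genes, because LHY and CCA1 are synonyms of 1 rice gene, which is called LHY below. PRR59 matched no entry and is not analysed here. The 6 genes have 9 probe sets among 57194 on the array, and they are 6 of 17905 genes to which a probe set could be assigned.

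All plants shared the Minghui 63 background and were grown in nutrient solution in a climate chamber with 16 h of light at 30 °C and 8 h of dark at 26 °C, and roots were sampled at an age of 30 days. HH1 is 1 transgenic line, known as an insect-resistant rice that carries a fused cry1Ab/cry1Ac gene; the labels describe it only as transgenic, and the transgene's transcript was not analysed here. Each genotype had 3 biological replicates with 1 Affymetrix rice array each, 6 arrays in all, and the study asked for unintended differences in HH1 roots. The labels do not tell how many plants made up a replicate, so p-values measure the spread between these samples. The labels give no hour of harvest, so an hour that differed between genotypes cannot be told apart from genotype.

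The plant clock is a set of transcription regulators that repress one another in turn through the day, so the transcript of each member has its own time of day. In the model worked out mainly in Arabidopsis, the MYB factors LHY and CCA1 peak at dawn, the pseudo-response regulators (PRR proteins) follow through the day, and TOC1, the counterpart of rice PRR1, and GIGANTEA come towards evening. In rice the same genes also set flowering time: GI acts upstream of the heading date regulator Hd1, and PRR37, known in rice genetics as DTH7 or Hd2, delays heading in long days. Roots carry a clock too, which in Arabidopsis follows signals from the shoot.

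Root identity and other material were checked first. Of 12 root genes with a probe set, 11 lay above the background level on all 6 arrays, among them the silicon transporters Lsi1 (OsNIP2;1) and Lsi2 and the iron transporter OsIRT1, and OsSCR1 lay above it on none. The background level is the 95th percentile of 64 reporter probe sets for foreign genes, 37.1 to 42.3 by array. Of 10 green tissue genes, 2 were above it on every array and 2 on none, and their summed signal was 612, 1787 and 522 in HH1 replicates 1, 2 and 3 and 2104, 2173 and 488 in MH63 replicates 1, 2 and 3. The chlorophyll-binding protein gene CAB2R alone read 166, 1109 and 63.2 in HH1 and 1368, 1373 and 30.2 in MH63. Among 13 JAZ genes, markers of the jasmonate response, the mean log2 deviation of the 12 tested was 0.68, 0.72 and -0.45 in HH1 replicates 1, 2 and 3 and between -0.40 and -0.24 in MH63. Array medians of all probe sets lay between 33.1 and 33.8. The part of green material or of the jasmonate response in the clock values was not tested.

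None of the 6 clock genes passed the test between the genotypes. The test was run on the brighter 50% of probe sets by mean log2 signal, 28597 in all, which took in 8 of the 9 clock probe sets, and 0 of these 8 passed an adjusted p of 0.05 (limma, Benjamini-Hochberg) or an unadjusted p of 0.05. Over all tested probe sets 32 were called, or 0.112%, and 4.01% had an unadjusted p under 0.05, so a count of 0 among 8 lies near the background. In limma the smallest unadjusted p of a clock probe set was 0.068, for PRR37, and each adjusted p was 1.00. Yet the means of LHY, PRR73, PRR37 and GI were all lower in HH1, by 0.13 to 0.44 on the log2 scale, and in the brightest probe set of each of these genes every HH1 array read below every MH63 array. Such separation downwards was seen in 4 of the 8 clock probe sets and in 5.27% of all tested probe sets, and separation upwards in 0 of 8 and 3.51%. In the separated clock probe sets the nearest HH1 and MH63 arrays differed by only 1.01-fold (PRR37) to 1.08-fold (LHY). The other 4 clock probe sets overlapped between the genotypes. In whole roots a lower signal from fewer expressing cells and one from less transcript per cell cannot be told apart. The median log2 difference was -0.17 over the 8 probe sets and -0.014 over all tested ones, and 6 of 8 clock probe sets lay below 0 where 53.6% of all did. These 8 probe sets come from 6 genes, with PRR37 and PRR73 counted by both of their probe sets. They also share the same arrays, so they are not independent of one another. The set was chosen with earlier results of these data known, so its counts beside those of all probe sets are a description. With 3 against 3 arrays, complete separation of a single probe set has an exact two-sided permutation p of 0.1, the smallest this design allows.

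**Figure D1:**
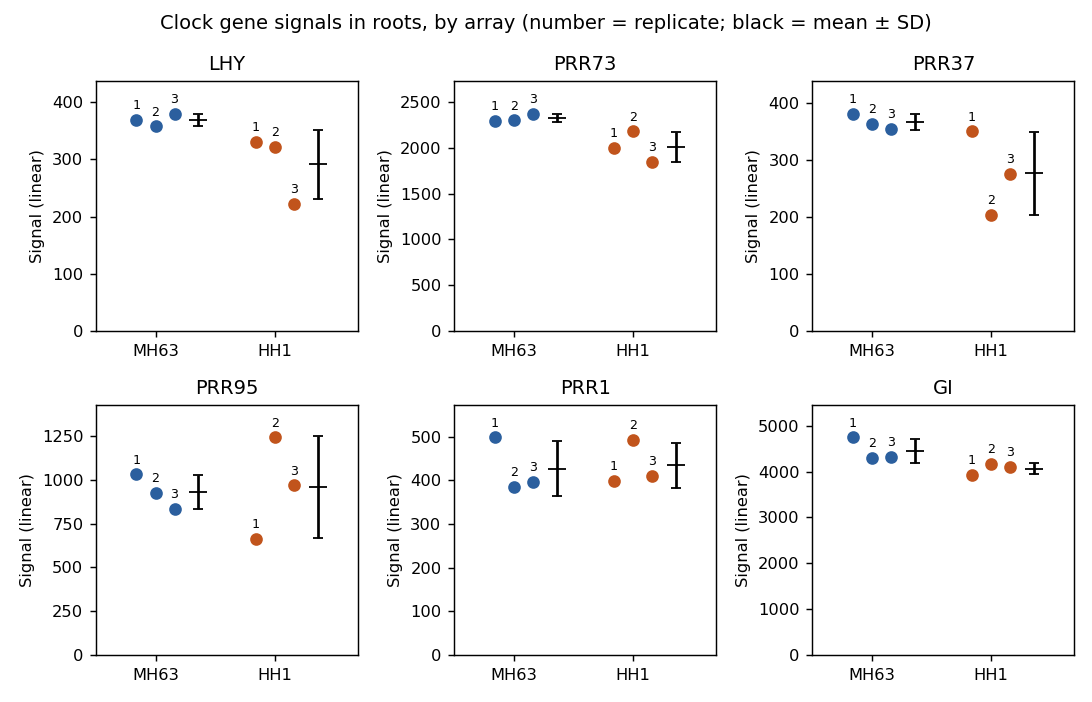
Signal (linear scale, y axes from 0) of the brightest probe set of each of the 6 clock genes on each array; points are arrays numbered by replicate, and the black mark beside each genotype is the mean with its SD (n = 3). LHY, PRR73, PRR37 and GI have all HH1 points below all MH63 points, while PRR95 and PRR1 overlap.

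LHY is the MYB repressor at the morning end of the cycle. Its signal was 330, 321 and 222 in HH1 replicates 1, 2 and 3 and 369, 357 and 380 in MH63 replicates 1, 2 and 3. The 3 MH63 arrays lay within 1.06-fold of one another, and HH1 replicate 3 stood well below both other HH1 arrays, with a gap of 1.08-fold between the highest HH1 and the lowest MH63 array. The means were 291 ± 60.0 (SD, n = 3) for HH1 and 369 ± 11.2 (SD, n = 3) for MH63, a ratio of 0.778 of the geometric means with a 95% interval of 0.582 to 1.04 (limma). The size of this difference rested on HH1 replicate 3: without it the log2 difference was -0.18 in place of -0.36. A further probe set of LHY stayed between 10.2 and 12.1, below the background level on all 6 arrays, was not tested, and gives no level.

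PRR73 belongs to the daytime pseudo-response regulators, which in Arabidopsis repress LHY and CCA1, and its nearest Arabidopsis relatives are PRR7 and PRR3. Its main probe set read 1997, 2176 and 1843 in HH1 replicates 1, 2 and 3 and 2289, 2297 and 2370 in MH63 replicates 1, 2 and 3. All HH1 arrays were lower, the nearest by a factor of 1.05. The means were 2005 ± 166 and 2319 ± 44.3 (SD, n = 3 each), a ratio of 0.863 with an interval of 0.727 to 1.03 (limma). The second PRR73 probe set did not show this separation. It read 205, 227 and 229 in HH1 and 284, 194 and 232 in MH63, with a ratio of 0.941 and an interval of 0.715 to 1.24 (limma), and its sign turned without MH63 replicate 1. The pair followed each other weakly over the 6 arrays (Pearson r 0.19, Spearman rho 0.14), so the lower PRR73 level rests on 1 of 2 probe sets. Both have IDs ending in _a_at, which Affymetrix gives to probe sets that detect more than one transcript of a gene.

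PRR37, the long-day repressor of heading, had the largest mean difference of the 6 genes. Its main probe set read 350, 203 and 276 in HH1 replicates 1, 2 and 3 and 381, 363 and 355 in MH63 replicates 1, 2 and 3. MH63 was nearly constant, within 1.07-fold, whereas HH1 spanned 1.72-fold, and HH1 replicate 1 was separated from the lowest MH63 array by a factor of only 1.01. The means were 276 ± 73.5 and 366 ± 13.5 (SD, n = 3 each), a ratio of 0.737 with an interval of 0.527 to 1.03 (limma). Without HH1 replicate 2 the log2 difference was -0.24 in place of -0.44. The dimmer PRR37 probe set lay near the background level, above it on 5 of 6 arrays, with 53.3, 38.9 and 49.9 in HH1 and 56.8, 63.2 and 44.7 in MH63. It overlapped between the genotypes, and its mean log2 difference was -0.21 with a standard error of 0.18. That value was -0.075 without HH1 replicate 2, -0.10 without MH63 replicate 2 and -0.35 without MH63 replicate 3. The 2 PRR37 probe sets varied together over the 6 arrays (Pearson r 0.77, Spearman rho 0.77), and HH1 replicate 2 was lowest in both.

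PRR95, related to PRR9 and PRR5 of Arabidopsis, had nearly equal means in the genotypes and the largest replicate spread of the 6 genes. It read 662, 1242 and 968 in HH1 replicates 1, 2 and 3 and 1030, 927 and 833 in MH63 replicates 1, 2 and 3. The lowest and the highest array of all 6 were both HH1, 1.88-fold apart, with the MH63 arrays between them. The means were 957 ± 290 and 930 ± 98.5 (SD, n = 3 each), and the interval of the ratio ran from 0.682 to 1.47 (limma). Ratios across that interval remain compatible with these arrays.

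PRR1, the rice counterpart of TOC1, overlapped between the genotypes as well. It read 399, 493 and 410 in HH1 replicates 1, 2 and 3 and 498, 385 and 396 in MH63 replicates 1, 2 and 3. In each genotype 1 array stood above the other pair, HH1 replicate 2 and MH63 replicate 1. The means were 434 ± 51.4 and 426 ± 62.6 (SD, n = 3 each), a ratio of 1.02 with an interval of 0.792 to 1.32 (limma).

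GI, the large plant-specific protein between the clock and the flowering pathway, had a narrow spread. It read 3933, 4170 and 4097 in HH1 replicates 1, 2 and 3 and 4749, 4301 and 4315 in MH63 replicates 1, 2 and 3. The HH1 arrays lay within 1.06-fold of one another, and the lowest MH63 array was 1.03-fold above the highest HH1 array. The means were 4066 ± 121 and 4455 ± 255 (SD, n = 3 each), a ratio of 0.914 with an interval of 0.783 to 1.07 (limma). Without MH63 replicate 1, the highest array, the log2 difference was -0.084 in place of -0.13.

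**Figure D2:**
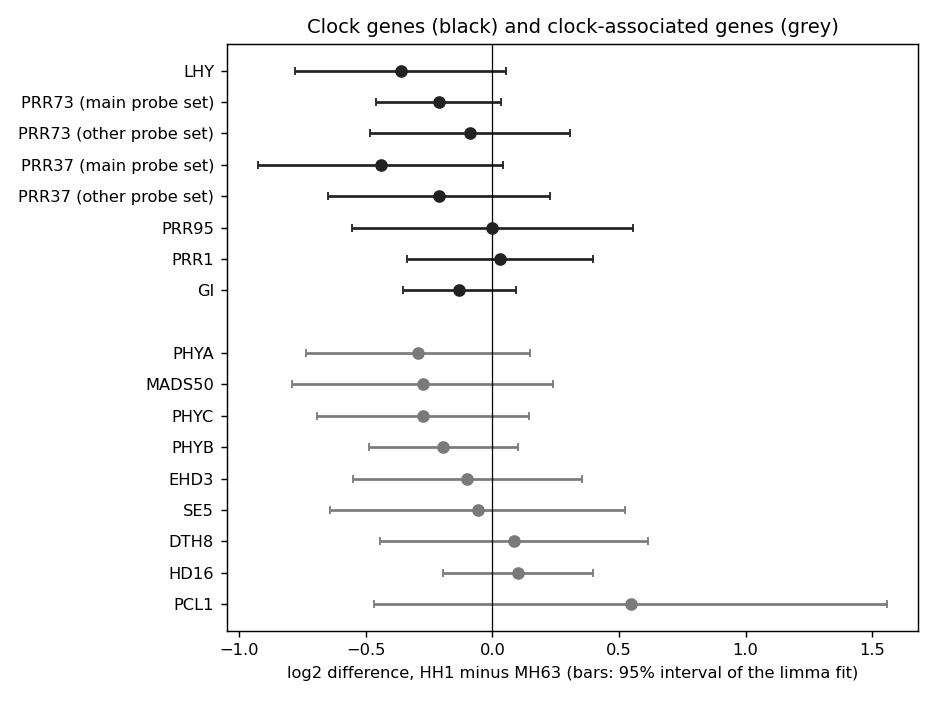
Log2 difference of HH1 minus MH63 for the 8 tested clock probe sets (black) and the 9 tested clock-associated genes (grey); points are the estimates and bars the 95% intervals of the limma fit over 6 arrays. Every interval includes 0, the lowest bound among the clock probe sets is -0.93 for PRR37, and the widest interval is that of PCL1.

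The arrays that read low differed from gene to gene. Among the brightest probe sets of the 6 genes, HH1 replicate 1 was the lowest array for GI and PRR95, HH1 replicate 2 for PRR37, HH1 replicate 3 for LHY and PRR73, and MH63 replicate 2 for PRR1. MH63 replicate 1 was above the gene's own 6-array mean for all 6 genes and was the highest array for 3 of them, with a median log2 deviation of 0.17, where all tested probe sets had a median of 0.064 on that array. HH1 replicate 3 was below the mean for 5 of 6 genes, with a median of -0.12 against 0.019 over all tested probe sets. HH1 replicate 2 was below for 3 of 6 genes, with PRR37 at -0.63 and PRR95 at 0.42. The lowest HH1 array was therefore not the same one for the 4 genes that separated.

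Spread within genotypes also set the members apart from one another. The residual SD of log2 signal was 0.065 for GI and 0.087 for the main PRR73 probe set, and 2.99% and 7.31% of tested probe sets had a smaller one. PRR1 stood at 0.19, LHY at 0.23, PRR37 at 0.28 and PRR95 at 0.34, with 46.2%, 60.7%, 73.5% and 82.2% of tested probe sets below them. The other PRR73 probe set stood at 0.20, with 52.8% of tested probe sets below it, so the narrow spread is not shown by both. The median over all tested probe sets was 0.20. These shares are over tested probe sets of any signal, and GI and the main PRR73 probe set were also the brightest clock probe sets. The part of brightness in the spread was not tested. Over all 6 arrays the signal of the 8 clock probe sets spanned 1.21-fold (GI) to 1.88-fold (PRR37 and PRR95), with a median of 1.54-fold beside 1.44-fold over all tested probe sets.

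**Figure D3:**
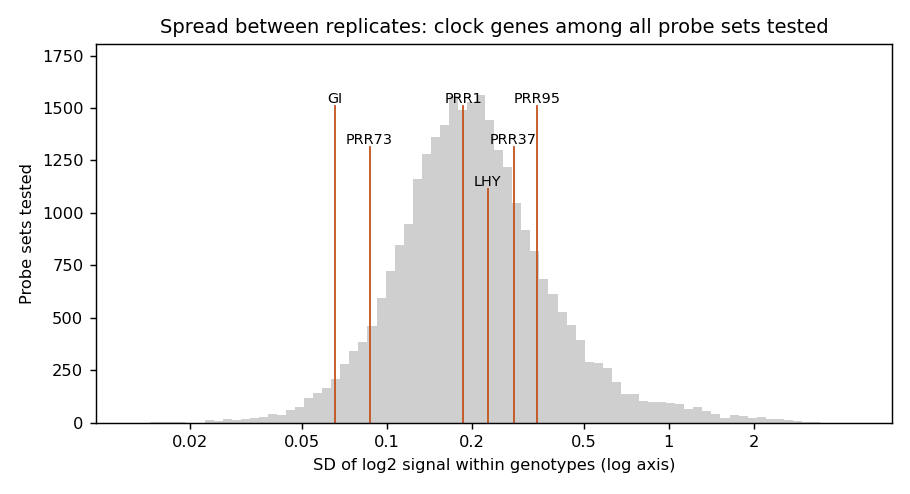
Distribution of the SD of log2 signal within genotypes (x axis, log scale) over the 28597 tested probe sets, as a histogram; vertical lines mark the brightest probe set of each clock gene. GI (0.065) and the main PRR73 probe set (0.087) lie at the low end and PRR95 (0.34) above most probe sets. The other PRR73 probe set (0.20) is not drawn.

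Pairs of clock genes were compared by the correlation of the log2 signals of their brightest probe sets over the 6 arrays. This is a description of 15 pairs that share the same arrays. The closest pair was LHY and the main PRR73 probe set (Pearson r 0.91, Spearman rho 0.89). Their r was 0.82 for deviations within genotypes and 0.81 without HH1 replicate 3, the array on which both were lowest. The first of these values still includes HH1 replicate 3. The second still includes the genotype difference, by which both genes separate. The likeness with both taken out was not computed, so it is not shown to go beyond that array and that difference. The other PRR73 probe set followed the main one weakly (r 0.19) and was lowest on MH63 replicate 2. It was not compared with LHY, so this likeness is that of the main probe set alone. PRR95 and PRR1 followed with r 0.71 and rho 0.71, both being high on HH1 replicate 2. The most opposed pair was PRR95 and PRR37, with r -0.64 and rho -0.20, and r -0.88 within genotypes. GI and PRR1 had r 0.51 and rho 0.14 over all arrays and r 0.92 within genotypes. LHY and PRR1, which repress each other's expression in the Arabidopsis model, showed r 0.094 and rho -0.26. The correlations show which arrays read alike and no phase of the day, since each array is 1 harvest.

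**Figure D4:**
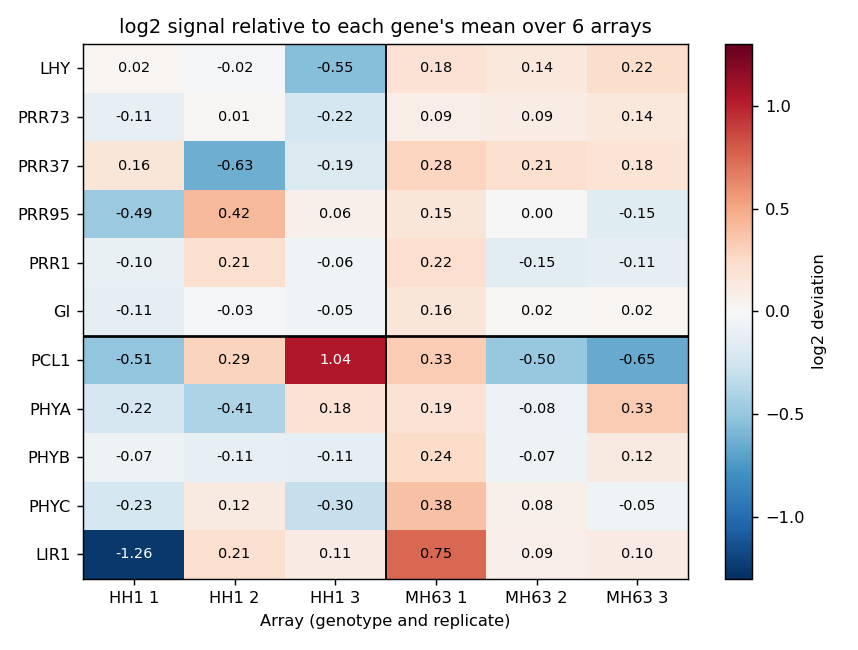
Log2 signal minus that gene's own 6-array mean (colour and printed value) for the 6 clock genes above the line and, below it, PCL1, the phytochromes and LIR1; columns are arrays. LHY and the main PRR73 probe set are lowest on HH1 replicate 3, where PCL1 is highest, and LIR1 is lowest on HH1 replicate 1.

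Around the core genes, 14 clock-associated and photoperiod genes were found by name, of which 11 had a probe set and 9 were tested. ELF3, of the evening complex, and the flowering regulator Ehd2 were among those with no probe set assigned and are not analysed here. Of the 9 tested genes 0 were called in either direction and 0 had an unadjusted p under 0.05 (limma), beside 0.112% and 4.01% of all tested probe sets. The signs split into 3 above and 6 below 0, with a median log2 difference of -0.098 beside -0.014 over all tested probe sets.

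PCL1, the rice counterpart of the Arabidopsis evening complex factor LUX, varied most of the list. It read 235, 410 and 686 in HH1 replicates 1, 2 and 3 and 421, 237 and 213 in MH63 replicates 1, 2 and 3. The genotypes overlapped, and 95.6% of tested probe sets had a smaller residual SD. The means were 444 ± 228 and 290 ± 114 (SD, n = 3 each), with a ratio of 1.46 and an interval of 0.724 to 2.95 (limma).

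The phytochromes, the red-light receptors that feed the clock, all had lower means in HH1 by their brightest probe set, and none passed the test. PHYA averaged 927 ± 199 (SD, n = 3) for HH1 and 1127 ± 157 (SD, n = 3) for MH63, from a probe set whose ID ending in _s_at marks it as able to bind related transcripts. A further, dimmer probe set of PHYA was not described here. PHYC stood at 175 ± 27.9 and 211 ± 33.5 (SD, n = 3 each). PHYB read 373, 364 and 362 in HH1 and 462, 373 and 426 in MH63. It was the only tested gene of the 9 without overlap, 1 of 9 beside 5.27% of all tested probe sets separated downwards, and the nearest HH1 and MH63 arrays differed by a factor of 1.00. SE5, the haem oxygenase that makes the phytochrome chromophore, read 817, 1614 and 1347 in HH1 and 1334, 1234 and 1216 in MH63, so that HH1 replicate 1 was lowest and HH1 replicate 2 highest, as for PRR95.

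Of the flowering genes downstream of the clock, several gave little or no signal in roots. Hd1, the rice CONSTANS, read between 5.48 and 7.40 and the florigen gene Hd3a between 8.66 and 11.6, below the background level on all 6 arrays, so no change is given. Hd16, a casein kinase I that acts on PRR37 and Ghd7, averaged 876 ± 71.5 (SD, n = 3) for HH1 and 817 ± 75.1 (SD, n = 3) for MH63. Ehd3, a PHD-finger promoter of flowering, stood at 224 ± 39.2 and 240 ± 40.2, and MADS50, a floral activator, at 79.6 ± 22.0 and 94.7 ± 13.2 (SD, n = 3 each). DTH8, a HAP3 subunit that delays heading in long days, was above the background level on 1 of 6 arrays.

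Genes other than the 6 clock genes with profiles most like those of LHY and GI were taken from 267 tested probe sets of 238 named genes with an SD of at least 0.5 on the log2 scale over the 6 arrays. The highest Pearson r with GI belonged to OsNOL, a chlorophyll b reductase (r 0.91, rho 0.83), the homeodomain-leucine zipper gene OsHox24 (r 0.89, rho 0.94), LIR1, a light-induced gene with a known daily rhythm in rice (r 0.82, rho 0.54), and an agglutinin gene (r 0.72, rho 0.89). LIR1 read 242, 669 and 623 in HH1 replicates 1, 2 and 3 and 969, 613 and 621 in MH63 replicates 1, 2 and 3. It was thus lowest and highest on the same arrays as GI, over a wider span. The r of these 4 genes stayed between 0.72 and 0.90 without MH63 replicate 1. That leaves in HH1 replicate 1, on which LIR1 stood far below its other arrays. It also leaves in the genotype difference: OsHox24 and the agglutinin gene read lower on every HH1 array than on every MH63 array, as GI did. The likeness apart from these was not examined. The lowest r with GI were those of OsWOX10 (-0.77), OsGLU6 (-0.76), the alternative oxidase gene OsAOX1A (-0.74) and the chalcone synthase gene OsCHS1 (-0.74). Some of these profiles rest on signals under the background level, which give no level: OsHox24 was above it on 0 of 3 HH1 arrays, OsNOL on 1 of 3 HH1 arrays, and OsWOX10 on 1 of 3 HH1 and 0 of 3 MH63 arrays.

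With LHY the highest r were those of OsSAG12, a senescence-associated protease gene (0.91), the alpha-amylase gene AMY1A (0.81), OsHox24 (0.79) and the isocitrate lyase gene OsICL (0.76). Without HH1 replicate 3 these became -0.18, -0.56, 0.84 and -0.67, so for OsSAG12, AMY1A and OsICL the likeness was that of a single array. OsHox24 kept a high r, but its arrays separate by genotype as those of LHY do, and it was above the background level on no HH1 array. The lowest r with LHY was that of PCL1 (-0.78, rho -0.60), which became -0.28 without HH1 replicate 3. It was followed by OsSTLP5, a sialyltransferase-like gene (-0.73), the expansin gene OsEXP1 (-0.62) and eIF-4G (-0.62). Without HH1 replicate 3 these became -0.92, 0.15 and -0.38, so those of OsEXP1 and eIF-4G also leaned on that array. OsSTLP5 was itself called between the genotypes, higher in HH1 by 1.96 on the log2 scale (limma, adjusted p 0.010), and its arrays separate by genotype as those of LHY do. These r values are over 6 arrays and were picked as extremes among 267 probe sets.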

How the data were processed

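Total RNA from roots was labelled from 6 ug per array, per the labels' protocols. The authors deposited a linear intensity for each probe set on each array. MAS5 is the tool in the submitters' processing notes, without a version. The table holds no detection calls, and the labels do not say how the arrays were scaled. With the outer 2% of values dropped on either side, the mean signal of an array lay between 160.6 and 169.6, whereas the usual MAS5 scaling to 1 target makes them equal, so it is not settled that these are MAS5 signals. A summary fitted across arrays would narrow the spread of dim signals, and the spreads given depend on which was used. Signals were used as log2 values with no offset. The 187 control probe sets were set aside, and the brighter 50% of the other 57194 by mean log2 signal over all arrays were tested in limma 3.58.1 (R 4.3.3; lmFit and trended eBayes, two-sided), and p-values were adjusted by Benjamini-Hochberg over all 28597.

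Names came from the platform annotation and RefSeq assembly ASM3414082v1, matched by gene number; only probe sets with exactly 1 gene were used, and a gene in a list was represented by its brightest probe set. The table gives no sequences and its build may not be that of the array, so no sequence or position is printed. The clock genes, lists and tests were chosen with earlier results of these data known. Named genes were all members, the 6 associated genes with the smallest p, Hd1 and Hd3a, and the 4 highest and 4 lowest Pearson r with LHY and with GI; SE5, Ehd3 and DTH8 fall outside that rule and were added after their values were seen.

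Alternatives were median centring, quantile normalization, an offset of 13.2, the brightest 25%, all probe sets, array weights, no trend, a replicate block and leaving out each array. Figures were drawn with matplotlib 3.10.9.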

Additional observations from a re-analysis of the deposited data

How the results depend on the processing

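No clock probe set and no clock-associated gene was called in any of the 14 alternatives, and the smallest adjusted p of a clock probe set in any of them was 0.44 (limma, PRR73 without HH1 replicate 2). LHY, both PRR37 probe sets, the main PRR73 probe set and GI kept their negative sign in every alternative that tested them. For LHY, GI and the main PRR37 and PRR73 probe sets, which separate by genotype, most alternatives could not turn the sign. Only median centring and quantile normalization could have, so the other alternatives add no support for it. The main PRR73 probe set reached an unadjusted p under 0.05 with quantile normalization (0.048), with array weights (0.024) and without HH1 replicate 2 (0.017). So did LHY without HH1 replicate 2 (0.048) and the main PRR37 probe set without HH1 replicate 1 (0.012), all in limma. Over all 28597 tested probe sets, 1203 reached it with quantile normalization and 1756 with array weights. Without HH1 replicate 2 the number was 2581, and without HH1 replicate 1 it was 843, beside 1147 in the main fit. The count of clock probe sets below MH63 without overlap was 4 to 5 under the scalings, filters and left-out arrays. These settings were added for this count after the data were seen. Leaving out an array makes such separation easier, and the share over all probe sets was counted only in the main fit. The count therefore has no background in these settings. Values near 0 changed sign. PRR95 had a log2 difference of -0.027 with quantile normalization, -0.0027 with median centring and -0.13 with array weights, and -0.21 to 0.24 with 1 array left out. PRR1 ran from -0.066 to 0.15 and the other PRR73 probe set from -0.22 to 0.051 with 1 array left out. Over all probe sets the 32 calls numbered 50 under array weights (the cause was not tested), 54 when every probe set was tested and 8 when only the brightest 25% were, settings that change how many enter the test. Leaving out 1 array gave 0 calls (HH1 replicate 1, where 843 had an unadjusted p under 0.05) up to 306 (HH1 replicate 3); what drives this range was not tested.

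With the replicate block 17 probe sets were called, none of a clock gene. Same-numbered arrays deviated together with r -0.12, 0.45 and 0.31 for replicates 1, 2 and 3, and HH1 replicate 1 was closest to MH63 replicate 3, so the numbers are not shown to pair the samples. The number of arrays limits the precision: the 95% intervals of the tested clock probe sets reach from -0.93 to 0.55 on the log2 scale. Probe sets below the background level, such as those of Hd1 and Hd3a and 1 of LHY, give no level.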
